A study of Mus musculus with 26 samples.

Results

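The genes described here encode nuclear subunits of the oxidative phosphorylation system of the mitochondrial inner membrane, measured in whole hearts of mouse embryos at embryonic day 12.5. They were chosen by symbol alone: every probe set with 1 annotated gene whose symbol begins with Nduf followed by a, b, c, s or v, with Uqcr, with Cox4 to Cox8 or with Atp5, or is Sdha to Sdhd, Cyc1 or Cycs. This gave 68 probe sets, 52 on the A array and 16 on the B array, for 59 of the 6137 genes that had a probe set with 1 gene symbol. The mouse line carries a deletion within the cardiac homeodomain factor Nkx2.5 that removes its NK2-specific domain, and hearts were wild-type (5 hearts, numbered 1, 2, 7, 9 and N1), heterozygous for the deletion (4 hearts, 5, 6, 12 and N2) or null (4 hearts, 3, 4, 8 and N3). The labels give no strain, litter, sex or date, so the p-values below measure only the spread between these hearts, and in whole-heart RNA fewer cells of a type and less RNA per cell cannot be told apart. Each of the 13 hearts was run on 1 A and 1 B array.

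Oxidative phosphorylation joins the oxidation of NADH and succinate to the making of ATP. Complex I takes electrons from NADH and complex II from succinate, complex III hands them through cytochrome c to complex IV, which reduces oxygen, and complex V, the ATP synthase, uses the proton gradient that complexes I, III and IV build. Heart muscle is among the tissues richest in these complexes, and its mitochondria are still maturing in the midgestation embryo. By complex the arrays held 20 genes of complex I, 3 of complex II, 8 of complex III, 1 of cytochrome c, 12 of complex IV and 13 of complex V. The pattern also took in Ndufaf1 and Ndufaf4, which are assembly factors of complex I and not subunits. No probe set named any of the 13 subunits encoded by mitochondrial DNA, nor Sdha, Cox7a1, Cox4i2, Cox6b1, Cox6b2, Atp5g2 or Atp5g3, so these were not analysed here.

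Of the 68 probe sets, 56 for 52 genes passed the filter on low signal, which asked for at least 4 hearts above a floor of 887 intensity units on A or 1373 on B. The 12 others were near or below the floor and included every probe set of Cox8c (the testis isoform of subunit 8), Sdhc and Sdhd (the membrane anchors of complex II), Ndufaf4, Ndufa11, Atp5d and Atp5pb. At least 10 hearts had a value for Sdhc and Sdhd, and none of those values was above the floor, so complex II is described by its iron-sulphur subunit Sdhb alone. Of the 56 tested probe sets, 52 were above the floor in every heart with a value. The exceptions were Ndufab1, Ndufa10, Ndufaf1 and Ndufb10, each of which had hearts below the floor. Blank cells in the deposited tables left a median of 11 hearts per tested probe set, and 17 probe sets had values in only 2 heterozygous hearts. Of the tested probe sets, 18 carried the family suffix, which marks probes that may also detect related genes.

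Some library facts bear on what follows. Most cells were blank in the A arrays of wild-type heart 1 and heterozygous hearts 6 and N2, and in the B arrays of wild-type hearts 9 and N1 and null heart 3. The 99th percentile of each array was taken only over probe sets with a value in every heart. With 81.3% of the A array of wild-type heart 1 blank, these are a minor part of the A probe sets. On A arrays this percentile was 22228 to 28576 in null hearts and 19903 to 21797 in wild-type hearts, without overlap. Heterozygous hearts, at 21447 to 23291, overlapped both groups. On B arrays this percentile was 34308 in wild-type heart 7, 27125 in wild-type heart 9 and 34260 in heterozygous heart 12. It was 47108 to 77005 in the 10 other hearts. Bright probe sets, which many of these subunits have, follow such differences in range, so each difference was also set against the 100 tested probe sets of the same array nearest in mean signal. Bright neighbours were few, since only 151 other tested probe sets of both arrays exceeded a mean log2 signal of 15. For the brightest members the match in signal is therefore loose.

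Null hearts and wild-type hearts were compared first, the comparison in which neither allele keeps the domain. Most subunit transcripts had slightly higher signal in null hearts: the log2 difference was above 0 for 49 of 56 probe sets, where 48.6% of all 4494 tested probe sets were above 0, and its median was 0.12 against -0.006 over all tested probe sets. No member passed, with 0 of 56 at an adjusted p under 0.05 in limma, where the lowest adjusted p was 0.9999 and 0.0223% of all probe sets were called. Likewise 0 of 56 had an unadjusted p under 0.05 in limma, against 1.16% of all probe sets on the higher side and 1.25% on the lower. In none of the 56 did the null and wild-type hearts separate without overlap, which 1.07% of all probe sets did upward and 1.2% downward. Against probe sets of equal signal the median difference shrank to 0.052, and 37 of 56 members lay above their neighbours. Without the 3 B arrays of low range 44 of 56 were above 0, and without the mostly blank arrays 47 of 56. After quantile scaling the count fell to 35 of 57 tested probe sets with a median of 0.038, and after a loess curve per array to 34 of 56 with a median of 0.044.

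The dependence on signal can be read from bins of mean signal. Above a mean log2 signal of 15 the 9 member probe sets had a median difference of 0.14 between null and wild-type hearts, and the 151 other probe sets of that brightness had 0.27. Between 14 and 15 the medians were 0.14 for 18 members and 0.089 for 195 others, and between 13 and 14 they were 0.12 for 20 members and 0.008 for 369 others. By these medians the brightest subunit transcripts lay below other bright transcripts, and those of middle signal above others of their signal. In heterozygous minus wild-type hearts the bin of highest signal was near 0 in the other probe sets, at -0.006.

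**Figure D1:**
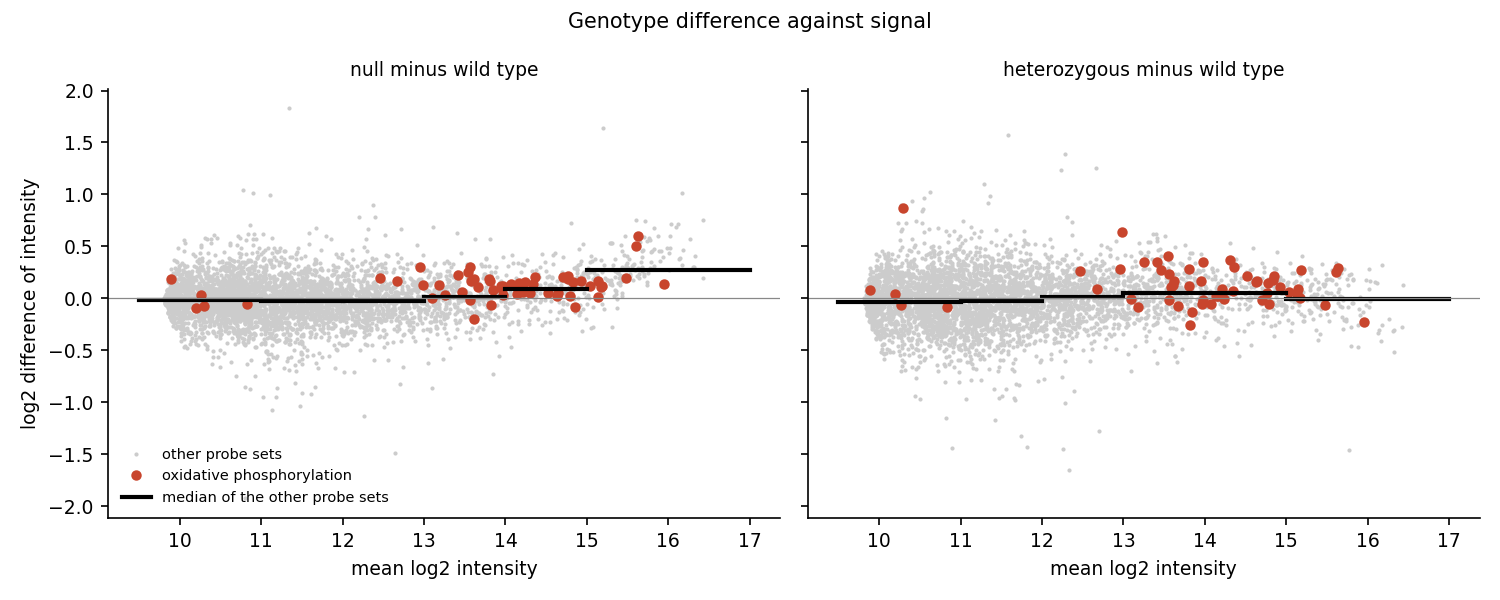
Log2 difference of intensity (vertical axis) against mean log2 intensity (horizontal axis) for 4494 probe sets, null minus wild type on the left and heterozygous minus wild type on the right. Red points are the 56 oxidative phosphorylation probe sets, grey points the others, and black bars the median of the others in each bin of signal, which rises to 0.27 above a signal of 15 in the left panel.

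The complexes differed in how much of their shift remained against equal signal. Complex I had 18 of 19 probe sets above 0 with a median of 0.14, and 16 of 19 above their equal-signal neighbours with a median of 0.1. Under quantile scaling 17 of 19 and under the loess curve 16 of 19 complex I probe sets stayed above 0. Complex V had 11 of 12 above 0 with a median of 0.13 as deposited, but only 5 of 12 above their neighbours with a median of -0.029, and under the loess curve 5 of 12 were above 0. Complex IV had 11 of 13 above 0 with a median of 0.11, which became 0.015 against equal signal and 7 of 13 above 0 under either scaling. Complex III had 7 of 8 above 0 with a median of 0.091 (0.047 against equal signal), and 4 of 8 under quantile scaling. Whether the complexes differ from each other was not tested.

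**Figure D2:**
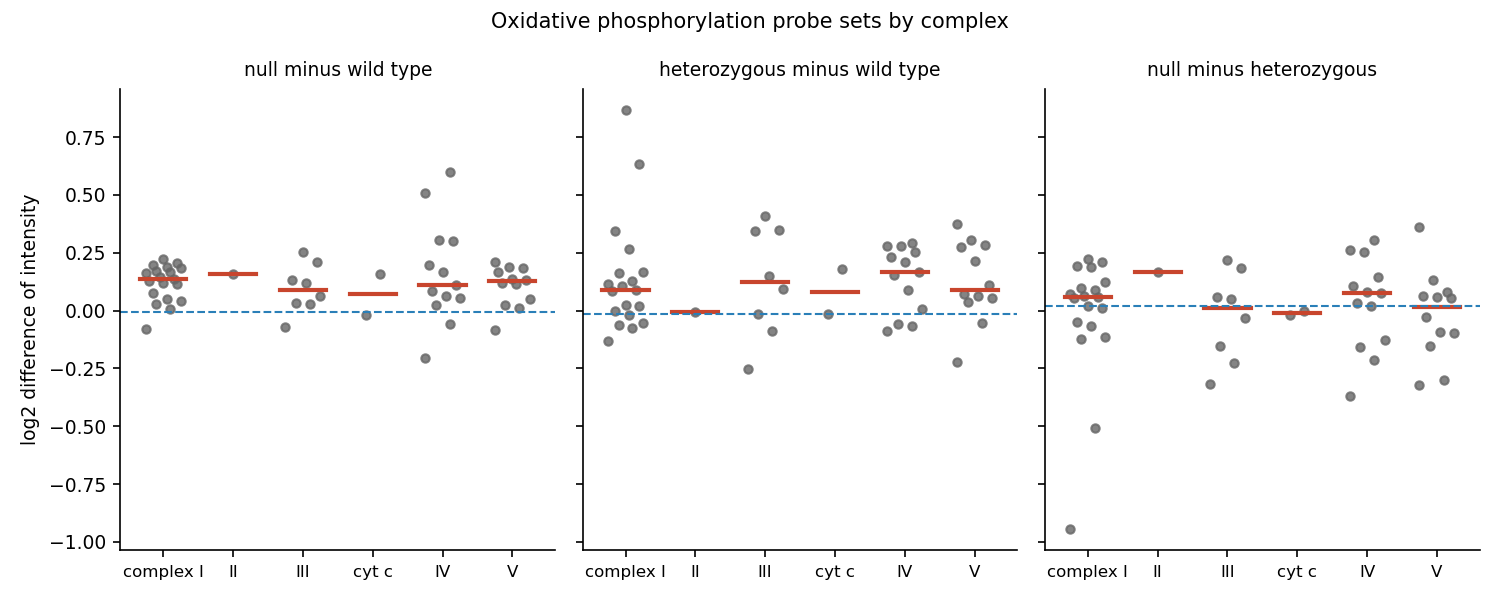
Log2 difference of intensity for each tested subunit probe set (grey points), grouped by complex, for the 3 genotype comparisons. Red bars are medians per complex and the dashed line is the median of all 4494 tested probe sets; in the left panel complex I has 18 of 19 points above 0, and values are as deposited, before any scaling alternative.

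The medians of each heart show how the genotypes overlap. As the median log2 deviation of the member probe sets from their mean over hearts, wild-type hearts 1 and 2 stood at 0.142 and 0.122, and wild-type hearts 7, 9 and N1 at -0.171, -0.095 and -0.151. Heterozygous hearts 5, 6, 12 and N2 stood at -0.005, 0.068, 0.087 and 0.066, and null hearts 3, 4, 8 and N3 at 0.102, 0.157, -0.085 and 0.047. The wild-type hearts thus split by heart number around all 4 heterozygous hearts, and null heart 8 lay below every heterozygous heart and just above wild-type heart 9. Against equal signal the range narrowed to between -0.107 in wild-type heart 7 and 0.077 in wild-type heart 2, with null hearts between -0.08 and 0.06. Within hearts 1 to 6 the median null-minus-wild-type difference was 0.015, within hearts 7 to 12 it was 0.068, and within hearts N1 to N3 it was 0.12. Against equal signal these became -0.028, -0.006 and 0.031.

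**Figure D3:**
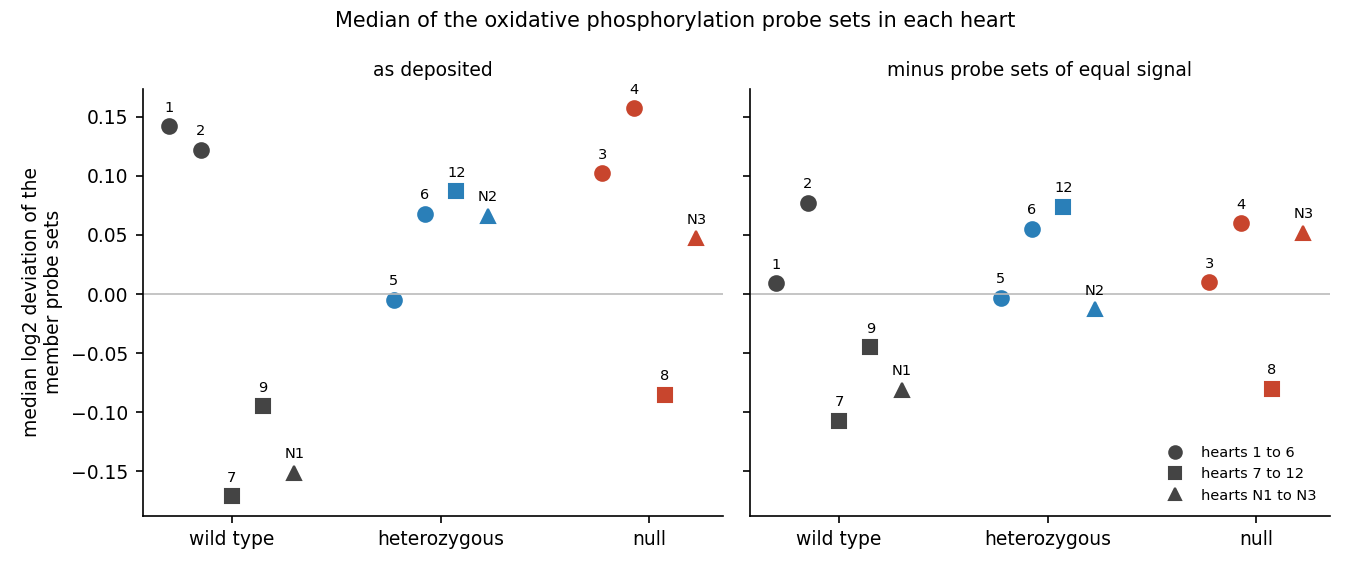
Median log2 deviation of the oxidative phosphorylation probe sets in each heart (vertical axis), by genotype, as deposited (left) and after subtracting probe sets of equal signal (right). Each point is 1 heart with its number, and the symbol gives the range of heart numbers; wild-type hearts 7, 9 and N1 lie below 0 and wild-type hearts 1 and 2 above 0 in both panels.

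Markers of heart cell types were read beside these values. Of the 12 tested probe sets of 9 heart muscle genes (Actc1, Myh6, Myl2, Myl3, Myl4, Ryr2, Tnnc1, Tnni3 and Tnnt2) 12 were above 0 in null minus wild-type hearts, with a median of 0.33. All but that of Ryr2 had a mean log2 signal above 15. Of the 151 probe sets of that brightness that are not members, 142 (94%) were above 0, with a median of 0.27. The summed intensity of the 3 muscle probe sets without blanks was 54674 to 293924 in wild-type, 59462 to 174361 in heterozygous and 139021 to 245131 in null hearts, lowest in wild-type heart 9. The muscle median was 0.17 after quantile scaling (8 of 12 above 0) and 0.047 after the loess curve (9 of 12). The 6 red-cell probe sets were also above 0 as deposited, with a median of 0.51 (0.26 after quantile scaling and 0.22 after the loess curve), and the 1 without blanks ranged from 2117 to 227332 in wild-type, 5470 to 60077 in heterozygous and 42054 to 128569 in null hearts. Without the 3 B arrays of low range 4 of 6 red-cell probe sets were above 0, with a median of 0.40. All 5 endothelial probe sets were below 0 as deposited and under both scalings, with a deposited median of -0.29. Mesenchyme and matrix probe sets had a median of -0.09 with 4 of 11 above 0, and leukocyte ones -0.13 with 0 of 2. The skeletal muscle list had a median of -0.18 with 2 of 4 above 0 (0.13 without the 3 B arrays of low range). Of it, Acta1 was at -0.73 ± 0.21 (unadjusted p = 0.00341, adjusted p = 0.9999 in limma). None of these markers passed in limma, all of their tested genes were detected in the hearts, and the 4 liver and 3 neuron marker genes on the arrays were too dim to test. The part of muscle, blood or endothelial content in the subunits' values was not tested.

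Heterozygous and wild-type hearts were compared to see what accompanies loss of the domain from 1 allele. Subunit transcripts again leaned upward: 40 of 56 probe sets were above 0, against 47.3% of all probe sets, with a median of 0.099 against -0.014 over all probe sets. Here the shift was about as large against equal signal, with a median of 0.093 and 36 of 56 above their neighbours. It was 0.17 after quantile scaling (49 of 57 above 0) and 0.067 after the loess curve (38 of 56). No member passed in limma at an adjusted p under 0.05, where the lowest adjusted p among them was 0.9818 and 0% of all probe sets were called. At an unadjusted p under 0.05 in limma, 2 members were higher, Ndufa12 and Ndufa10, against 1.54% of all probe sets, and 0 were lower, against 1.82%. Ndufa10 passed the filter on low signal only through its heterozygous hearts, so its place in this count carries no weight. The hearts of both genotypes separated without overlap for 2 members upward, Ndufa12 and Ndufa5, where 2.63% of all probe sets did, and for 0 downward, where 2.87% did. Within hearts 1 to 6 the median difference was -0.124, within hearts 7 to 12 it was 0.248 and within hearts N1 to N3 it was 0.155, so the direction was not the same in all 3 ranges of heart number.

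By complex the heterozygous-minus-wild-type medians were 0.091 for complex I (13 of 19 above 0), 0.12 for complex III (5 of 8), 0.17 for complex IV (10 of 13) and 0.091 for complex V (10 of 12). Against equal signal they were 0.093, 0.068, 0.11 and 0.075. These 4 complexes kept a median above 0 under quantile scaling and under the loess curve, while Sdhb of complex II was at -0.007 as deposited and at 0.13 after quantile scaling. Without the 3 B arrays of low range the complex IV median was 0.039 with 8 of 13 above 0.

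Null and heterozygous hearts were compared to set loss of both alleles beside loss of 1 allele. Of 56 members 33 were above 0, against 53.4% of all probe sets, and the median of 0.052 became -0.002 against equal signal, with 27 of 56 above their neighbours. The median turned to -0.117 after quantile scaling and -0.031 after the loess curve. It was 0.121 within hearts 1 to 6 (42 of 56 above 0), -0.108 within hearts 7 to 12 (18 of 52) and -0.035 within hearts N1 to N3 (19 of 39). In limma 0 members passed, with a lowest adjusted p of 0.7677, and 0% of all probe sets were called. At an unadjusted p under 0.05 in limma, 2 members were lower, again Ndufa12 and Ndufa10, against 2.87% of all probe sets, and 0 were higher, against 2.89%. Ndufa10 was tested only through its heterozygous hearts, which bears on this count and the next. Without overlap, Ndufs3 and Cox8a were higher in null hearts, where 3.78% of all probe sets were, and Ndufa10 and Ndufa12 lower, where 3.92% were. This comparison shares its heterozygous hearts with the comparison above, so the low null values of these genes and their high heterozygous values are not separate observations. Heart muscle markers had a median of 0.42 in this comparison, with 11 of 12 above 0 (0.12 after quantile scaling and 0.1 after the loess curve), and red-cell markers 0.73 with 5 of 6 above 0 (0.33 and 0.36). Of the 151 probe sets above a mean log2 signal of 15 that are not members, 135 were above 0, with a median of 0.28. The part of these markers in the subunits' values was not tested.

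Promoter sequences of these genes are known for sites of nuclear respiratory factor 1 (NRF1), ETS-family factors and YY1, so the 250 bases before the transcription start were searched on both strands for CGCATGCG (NRF1, its own reverse complement), CCGGAAGT (ETS) and AAGATGGC (YY1), with no overlapping matches in the windows shown. RefSeq promoters of build GRCm38.p6 were found for 48 of the 59 genes. CGCATGCG was present in 7 of 48 member genes (14.6%), against 1.55% of 32851 windows of all genes. CCGGAAGT was present in 1 of 48 (2.08%) against 2.88%, and AAGATGGC in 1 of 48 (2.08%) against 1.56%. A member gene was counted if any of its windows matched, whereas the share over all genes is per single window. The shares are therefore not in the same unit, and a gene with several windows has more chances to match. The genes with CGCATGCG were Atp5j, Atp5k, Atp5l, Cox6a1, Cycs, Ndufa11 and Ndufaf4, of which 5 were tested. A match describes the letters and not a bound site. Of the 6 tested probe sets of these 5 genes, 5 were above 0 in null minus wild-type and 5 in heterozygous minus wild-type hearts, and none passed in limma. Over all members 49 of 56 (87.5%) and 40 of 56 (71.4%) were above 0, so the motif genes did not stand apart. The windows below show the tested genes Cycs, Cox6a1 and Atp5l with the NRF1 letters in capitals, and Uqcr11, which differed by heart number, with the ETS letters in capitals, beside Ndufa12 and Ndufa10, which had the smallest p-values and hold none of the 3 motifs in this window.
Cycs, chr6:50566570-50566819, minus strand: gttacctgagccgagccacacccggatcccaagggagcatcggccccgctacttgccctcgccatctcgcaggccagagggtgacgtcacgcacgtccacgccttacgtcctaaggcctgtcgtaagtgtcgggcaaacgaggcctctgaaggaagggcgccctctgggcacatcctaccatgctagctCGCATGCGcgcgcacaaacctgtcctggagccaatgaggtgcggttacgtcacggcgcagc
Cox6a1, chr5:115348959-115349208, minus strand: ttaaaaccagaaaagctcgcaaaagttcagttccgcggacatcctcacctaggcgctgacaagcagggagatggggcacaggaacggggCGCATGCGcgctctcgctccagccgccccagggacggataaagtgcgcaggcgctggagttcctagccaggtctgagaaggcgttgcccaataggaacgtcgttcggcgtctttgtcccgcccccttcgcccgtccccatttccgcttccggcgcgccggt
Atp5l, chr9:44920743-44920992, minus strand: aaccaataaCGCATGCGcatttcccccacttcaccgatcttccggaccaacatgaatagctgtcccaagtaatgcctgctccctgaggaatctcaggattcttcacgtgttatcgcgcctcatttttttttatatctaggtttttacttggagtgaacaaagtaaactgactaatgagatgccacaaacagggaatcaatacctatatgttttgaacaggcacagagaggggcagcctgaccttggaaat
Uqcr11, chr10:80406822-80407071, minus strand: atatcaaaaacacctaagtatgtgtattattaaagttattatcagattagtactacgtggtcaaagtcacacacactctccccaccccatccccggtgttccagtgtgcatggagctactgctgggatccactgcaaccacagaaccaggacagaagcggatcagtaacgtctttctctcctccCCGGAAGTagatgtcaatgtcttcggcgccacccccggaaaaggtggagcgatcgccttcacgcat
Ndufa12, chr10:94198785-94199034, plus strand: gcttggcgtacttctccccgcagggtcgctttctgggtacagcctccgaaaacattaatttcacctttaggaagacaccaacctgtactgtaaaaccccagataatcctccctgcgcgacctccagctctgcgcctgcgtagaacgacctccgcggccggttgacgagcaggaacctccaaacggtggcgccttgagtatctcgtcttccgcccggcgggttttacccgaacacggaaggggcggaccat
Ndufa10, chr1:92473759-92474008, minus strand: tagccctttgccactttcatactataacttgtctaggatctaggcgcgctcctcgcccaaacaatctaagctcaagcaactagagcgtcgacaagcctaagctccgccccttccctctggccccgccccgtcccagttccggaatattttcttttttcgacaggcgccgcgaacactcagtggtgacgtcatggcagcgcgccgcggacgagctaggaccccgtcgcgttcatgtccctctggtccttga
The NRF1 letters lay 61 to 54 bases before the start in Cycs, 161 to 154 in Cox6a1 and 241 to 234 in Atp5l, and the ETS letters 66 to 59 bases before the start in Uqcr11.

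Complex I is the entry point for electrons from NADH. Ndufa12, an accessory subunit, had the smallest p of all members (probe set w90880_s_at). Its intensity was 6217, 5409, 8386, 8174 and 6380 in wild-type hearts 1, 2, 7, 9 and N1. In heterozygous hearts 5, 6, 12 and N2 it was 10699, 10746, 9749 and 11152, and in null hearts 3, 4, 8 and N3 it was 6008, 8194, 7045 and 8841. Every heterozygous heart was above every wild-type and every null heart, while wild-type and null hearts overlapped. The heterozygous mean was 10590 ± 594 (SD, n = 4), the wild-type mean 6913 ± 1300 (n = 5) and the null mean 7522 ± 1250 (n = 4). The log2 difference between heterozygous and wild-type hearts was 0.63 ± 0.16 (SE), with an unadjusted p of 0.00096 and an adjusted p of 0.9818 in limma. Against equal signal it was 0.58, and within hearts 1 to 6, 7 to 12 and N1 to N3 it was 0.887, 0.236 and 0.806. The null-minus-heterozygous difference was -0.51 ± 0.16 (unadjusted p = 0.00729 in limma), and the null-minus-wild-type difference was 0.13 ± 0.16. Over the alternatives and left-out hearts the heterozygous-minus-wild-type difference ranged from 0.55 to 0.86, and only a fit without any filter on low signal called it, with an adjusted p of 0.0393 in limma. That fit also called Sdhd, whose hearts all lie at the floor, at a difference of 0, so its calls carry no weight here.

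Ndufa10, an accessory subunit related to nucleoside kinases, was dim (probe set aa512555_at). Its intensity was 1735, 501, -369 and 60 in wild-type hearts 2, 7, 9 and N1, so 1 of 4 lay above the floor of 887. It was 1972, 2062 and 1722 in heterozygous hearts 5, 12 and N2, and 1330, 932, 413 and 541 in null hearts 3, 4, 8 and N3. Of the 6 hearts above the floor 3 were heterozygous, and the filter asked for at least 4. The probe set was therefore tested only because of the group in which it is high. Heterozygous hearts were above all null hearts and overlapped wild-type heart 2. With values raised to the floor the log2 difference was 0.87 ± 0.24 between heterozygous and wild-type hearts (unadjusted p = 0.00283, adjusted p = 0.9818 in limma) and -0.95 ± 0.24 between null and heterozygous hearts. The size depended on the floor: the former was 1.57 with the floor at the noise and 0.43 with the floor at 3 times the noise. The other Ndufa10 probe set was below the floor in all 11 hearts with a value.

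**Figure D4:**
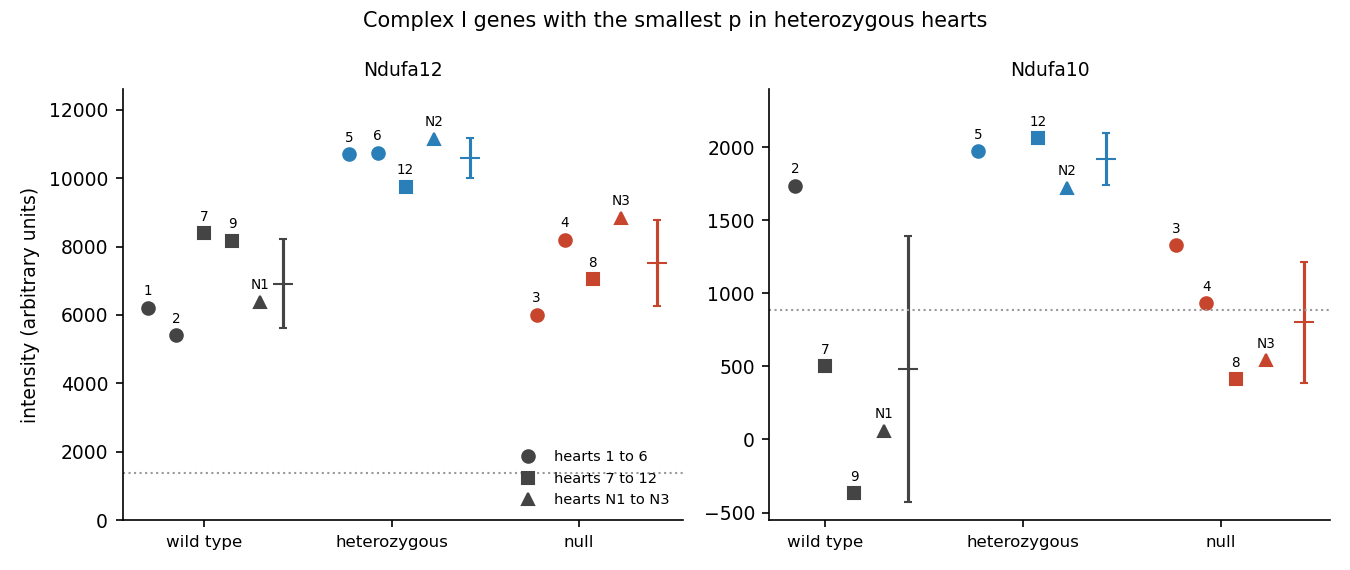
Intensity of Ndufa12 (left) and Ndufa10 (right) in each heart, by genotype, with heart numbers and symbols for the range of numbers. Bars beside the points are mean ± SD and the dotted line is the floor (1373 left, 887 right); the 4 heterozygous Ndufa12 values lie between 9749 and 11152, above all others.

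Ndufa5, an accessory subunit, was at 12175, 12469 and 11955 in heterozygous hearts 5, 12 and N2 and at 11890, 6870, 10924 and 9503 in wild-type hearts 2, 7, 9 and N1. The groups did not overlap, although wild-type heart 2 came close, and the difference of 0.35 ± 0.19 had an unadjusted p of 0.0849 in limma. Null hearts ranged from 8613 to 12889 and overlapped both groups (null minus wild type 0.22 ± 0.17). Ndufs3, a core subunit of the arm that passes electrons to quinone, was 13715, 12937, 13614 and 14095 in heterozygous and 15825, 15127, 15251 and 16697 in null hearts. Null hearts were above heterozygous hearts without overlap, by 0.21 ± 0.11 (unadjusted p = 0.0697 in limma), and this difference was -0.019 after quantile scaling. Ndufa3, an accessory subunit, differed by 0.21 ± 0.13 between null and wild-type hearts, whose values of 26657 to 35212 and 22935 to 27905 overlapped. Ndufb10, of the membrane arm, differed by 0.18 ± 0.12, but 1 of 4 wild-type and 2 of 4 null values were above the floor. It passed the filter with just 4 hearts above the floor. The core subunits of the NADH-oxidising arm, Ndufv1 and Ndufv2, were at 0.005 ± 0.16 and 0.17 ± 0.14. The assembly factor Ndufaf1 was at -0.096 ± 0.17 in null against wild-type, 0.038 ± 0.21 in heterozygous against wild-type and -0.13 ± 0.21 in null against heterozygous hearts, with no call in limma, and wild-type heart 7, at 824, lay below the floor.

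Complex II, the succinate dehydrogenase shared with the citric acid cycle, was measured through Sdhb. Its intensity was 17984, 20108, 17377, 20607 and 17451 in wild-type hearts 1, 2, 7, 9 and N1. It was 19920, 18879, 16851 and 18731 in heterozygous hearts 5, 6, 12 and N2, and 23118, 21714, 17047 and 21932 in null hearts 3, 4, 8 and N3. Null hearts 3, 4 and N3 were above every wild-type heart and null heart 8 was below every one. The difference was 0.16 ± 0.12 between null and wild-type hearts, -0.007 ± 0.12 between heterozygous and wild-type hearts and 0.17 ± 0.12 between null and heterozygous hearts.

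Complex III passes electrons from quinol to cytochrome c. Between null and wild-type hearts the smallest p-values were those of the small subunits Uqcr10 (0.21 ± 0.14, and 0 after quantile scaling) and Uqcrq (0.25 ± 0.22). Single hearts moved both: dropping wild-type heart 9 put Uqcrq at 0.11, dropping heart 2 put it at 0.47, and dropping heart N1 put Uqcr10 at 0.12. Between heterozygous and wild-type hearts they were those of Uqcrq (0.41 ± 0.22) and the small subunit Uqcr11 (0.35 ± 0.22). Between null and heterozygous hearts Uqcrb, a small subunit, was at -0.32 ± 0.28 and Uqcrc1, core protein 1, at 0.22 ± 0.22. Cyc1, cytochrome c1, was at 0.061 ± 0.17, 0.092 ± 0.18 and -0.031 ± 0.18 in the 3 comparisons, and the Rieske protein Uqcrfs1 at 0.033 ± 0.13 between null and wild-type hearts. None of these passed in limma.

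Cytochrome c carries electrons from complex III to complex IV. Its somatic gene Cycs had 2 tested probe sets, both on B. The family-type probe set X01756_f_at was 25735, 31617, 25643, 24360 and 28215 in wild-type, 29658, 32541, 29566 and 30570 in heterozygous, and 34569, 31975, 26713 and 28036 in null hearts, in the order of heart numbers given above. Its differences were 0.16 ± 0.14 (null minus wild type), 0.18 ± 0.14 (heterozygous minus wild type) and -0.019 ± 0.15 (null minus heterozygous). The other probe set was at -0.019 ± 0.18, -0.017 ± 0.17 and -0.002 ± 0.17, so the probe sets did not share a direction against wild type.

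Complex IV, cytochrome c oxidase, has subunits with separate heart or muscle isoforms. For subunit 6a, the heart and muscle isoform Cox6a2 had 2 tested probe sets. On A it was 14639, 9734, 9379 and 9795 in wild-type hearts 2, 7, 9 and N1, 14929 and 10564 in heterozygous hearts 5 and 12, and 12690, 14499 and 12548 in null hearts 3, 4 and N3. Wild-type heart 2 was above every null value and the 3 other wild-type hearts were below every one. The difference was 0.31 ± 0.18 (unadjusted p = 0.123 in limma). On B the Cox6a2 probe set was at 0.086 ± 0.18, and at -0.095 without the B arrays of low range. Between heterozygous and wild-type hearts they were at 0.23 ± 0.21 and -0.059 ± 0.16, and between null and heterozygous hearts at 0.074 ± 0.22 and 0.14 ± 0.16. The general isoform Cox6a1 was at 0.17 ± 0.15, 0.089 ± 0.18 and 0.079 ± 0.18 in the 3 comparisons.

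For subunit 8, the heart and muscle isoform Cox8b was dim but measurable, at 1954 ± 664 (SD, n = 4) in wild-type, 1780 ± 253 (n = 2) in heterozygous and 2000 ± 1020 (n = 3) in null hearts, and it differed by -0.056 ± 0.35 between null and wild-type, -0.088 ± 0.40 between heterozygous and wild-type and 0.032 ± 0.42 between null and heterozygous hearts. The general isoform Cox8a was 49320, 51290 and 51585 in null hearts 3, 4 and N3 and 44917 and 39776 in heterozygous hearts 5 and 12. Null hearts were above these 2 heterozygous hearts by 0.26 ± 0.17, while wild-type heart 2 at 50399 lay among the null hearts (null minus wild type 0.20 ± 0.14, heterozygous minus wild type -0.068 ± 0.16). Against equal signal the null-minus-wild-type difference of Cox8a was 0.015. Its neighbour median of 0.18, at a mean log2 signal of 15.48, was also that of Atp5b at 15.95, so the match in signal was loose. The general isoform of subunit 7a, Cox7a2, was at 0.025 ± 0.16, 0.15 ± 0.16 and -0.13 ± 0.17 in the 3 comparisons. Cox5a, a subunit on the matrix side, was at 0.21 ± 0.15 and Cox7b at 0.28 ± 0.20 between heterozygous and wild-type hearts. Cox7a2l, which joins complexes III and IV in supercomplexes, was at -0.37 ± 0.18 between null and heterozygous hearts by its probe set X80899_f_at (unadjusted p = 0.0517 in limma), with its highest value, 18241, in heterozygous heart 12. The other tested Cox7a2l probe set was at -0.21 ± 0.24 there (unadjusted p = 0.391 in limma). Between null and wild-type hearts X80899_f_at was at -0.20 ± 0.17 and the other at 0.065 ± 0.255, so their directions differed.

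The general isoform of subunit 4, Cox4i1, and the subunit Cox7c had the highest null-minus-wild-type differences of all members, and Cox7c is described because of its values. Cox4i1 was 59467, 62741, 28817, 23592 and 47177 in wild-type hearts 1, 2, 7, 9 and N1. It was 57440, 62708, 30698 and 59059 in heterozygous hearts 5, 6, 12 and N2 and 57033, 70031, 70127 and 54494 in null hearts 3, 4, 8 and N3. Cox7c was 70315, 59331, 30455, 23878 and 42510 in wild-type, 55142, 62748, 30724 and 58750 in heterozygous and 59027, 69845, 59808 and 50806 in null hearts. For both genes the lowest 3 values were those of wild-type hearts 7 and 9 and heterozygous heart 12, the 3 hearts whose B arrays had the low range, and both probe sets are on B. The null-minus-wild-type difference was 0.60 ± 0.31 for Cox4i1 (unadjusted p = 0.0721 in limma) and 0.51 ± 0.31 for Cox7c (unadjusted p = 0.125 in limma). Without those 3 arrays it was 0.16 and 0.083, after quantile scaling 0.18 and 0.14, and after the loess curve 0.13 and 0.044. Those 3 arrays were picked because their bright probe sets without blanks were low, and both genes are bright and without blanks. A smaller difference without them thus follows from the choice and is not a separate observation. Within hearts 1 to 6 the null-minus-wild-type difference was 0.049 for Cox4i1 and -0.009 for Cox7c, within hearts 7 to 12 it was 1.43 and 1.15, and within hearts N1 to N3 it was 0.21 and 0.26. For Cox4i1 the other comparisons gave 0.29 ± 0.31 (heterozygous minus wild type) and 0.31 ± 0.33 (null minus heterozygous), which were 0.091 and 0.066 without the 3 arrays of low range. Leaving out wild-type heart 9 alone gave 0.091 for the former, and leaving out heterozygous heart 12 alone gave 0.066 for the latter. Another Cox7c probe set, on A, was below the floor in all 13 hearts.

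Complex V makes ATP in a head that is driven by a rotating membrane ring. In the F1 head, Atp5a1, the alpha subunit, was at 0.18 ± 0.13 between null and wild-type hearts by its A probe set and at 0.012 ± 0.22 by its B probe set. Atp5b, the catalytic beta subunit, was at 0.14 ± 0.15 in that comparison and at 0.36 ± 0.19 between null hearts and the 2 heterozygous hearts with a value (unadjusted p = 0.0706 in limma), which turned to -0.131 after quantile scaling. Atp5c1, the gamma subunit of the central stalk, was at 0.21 ± 0.14 between null and wild-type and 0.30 ± 0.17 between heterozygous and wild-type hearts. Of the peripheral stalk, Atp5o was at 0.28 ± 0.19 between heterozygous and wild-type hearts. Of the membrane part, the ring subunit c gene Atp5g1 was at 0.026 ± 0.12, -0.055 ± 0.15 and 0.081 ± 0.15 in the 3 comparisons, and subunit f, Atp5j2, was at -0.30 ± 0.18 between null and heterozygous hearts. None passed in limma.

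A grouping by heart number gave 4 calls among the members, where the genotypes gave 0. It was chosen after the data were seen: the 7 hearts numbered 7, 8, 9, 12 and N1 to N3 were set against the 6 hearts numbered 1 to 6, with genotype in the model, and each side held all 3 genotypes. In limma 4 of 56 members were lower in the 7 hearts at an adjusted p under 0.05, where 3.25% of all probe sets were, and 0 were higher, where 3.85% were. The members called were Uqcrq and Uqcr11, small subunits of complex III, Ndufab1, the mitochondrial acyl carrier protein and a subunit of complex I, and Ndufb6 of the complex I membrane arm. Uqcrq fell by 0.56 ± 0.12 on the log2 scale (adjusted p = 0.0175 in limma), Uqcr11 by 0.55 ± 0.13 (0.021), Ndufab1 by 0.53 ± 0.13 (0.027) and Ndufb6 by 0.42 ± 0.11 (0.031). Ndufab1 lay near the floor of 887, at 853 in heart N1 and 643 in heart N2, and its difference was -0.18 with the floor at 3 times the noise. The median over members was -0.137 with 39 of 56 below 0, where 47.9% of all probe sets were below 0 and their median was 0.015, and against equal signal it was -0.016. The count of 4 was 1 without wild-type heart 2, 2 without null heart 4 or null heart 8, 2 after quantile scaling, 2 without the mostly blank arrays and 0 without the filter on low signal. Uqcrq lost its call without wild-type heart 2 or null heart 4, and Uqcr11 without either of these or after quantile scaling. Ndufab1 lost its call without wild-type heart 1 or null heart 8, with another floor, after quantile scaling or without the mostly blank arrays. Ndufb6 lost its call when the mostly blank arrays were left out, and when wild-type heart 2 or 7, null heart 3 or 8, or heterozygous heart 6 or N2 was. What the heart numbers stand for is not given in the labels.

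Uqcrq was 16147, 15176, 13463, 15958 and 15783 in hearts 2, 5, 6, 3 and 4. In wild-type hearts 7, 9 and N1 it was 9242, 7691 and 9659, in heterozygous hearts 12 and N2 it was 12696 and 13193, and in null hearts 8 and N3 it was 8949 and 9904. The wild-type and null hearts of higher number were at about the same level, and the heterozygous ones were closer to hearts 1 to 6. Uqcr11 was 18984, 21396, 18893, 19613, 17913 and 21318 in hearts 1, 2, 5, 6, 3 and 4, and 11626, 11643, 11348, 15460, 19640, 10105 and 15648 in hearts 7, 9, N1, 12, N2, 8 and N3. Heterozygous heart N2 was the exception, within the range of hearts 1 to 6.

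**Figure D5:**
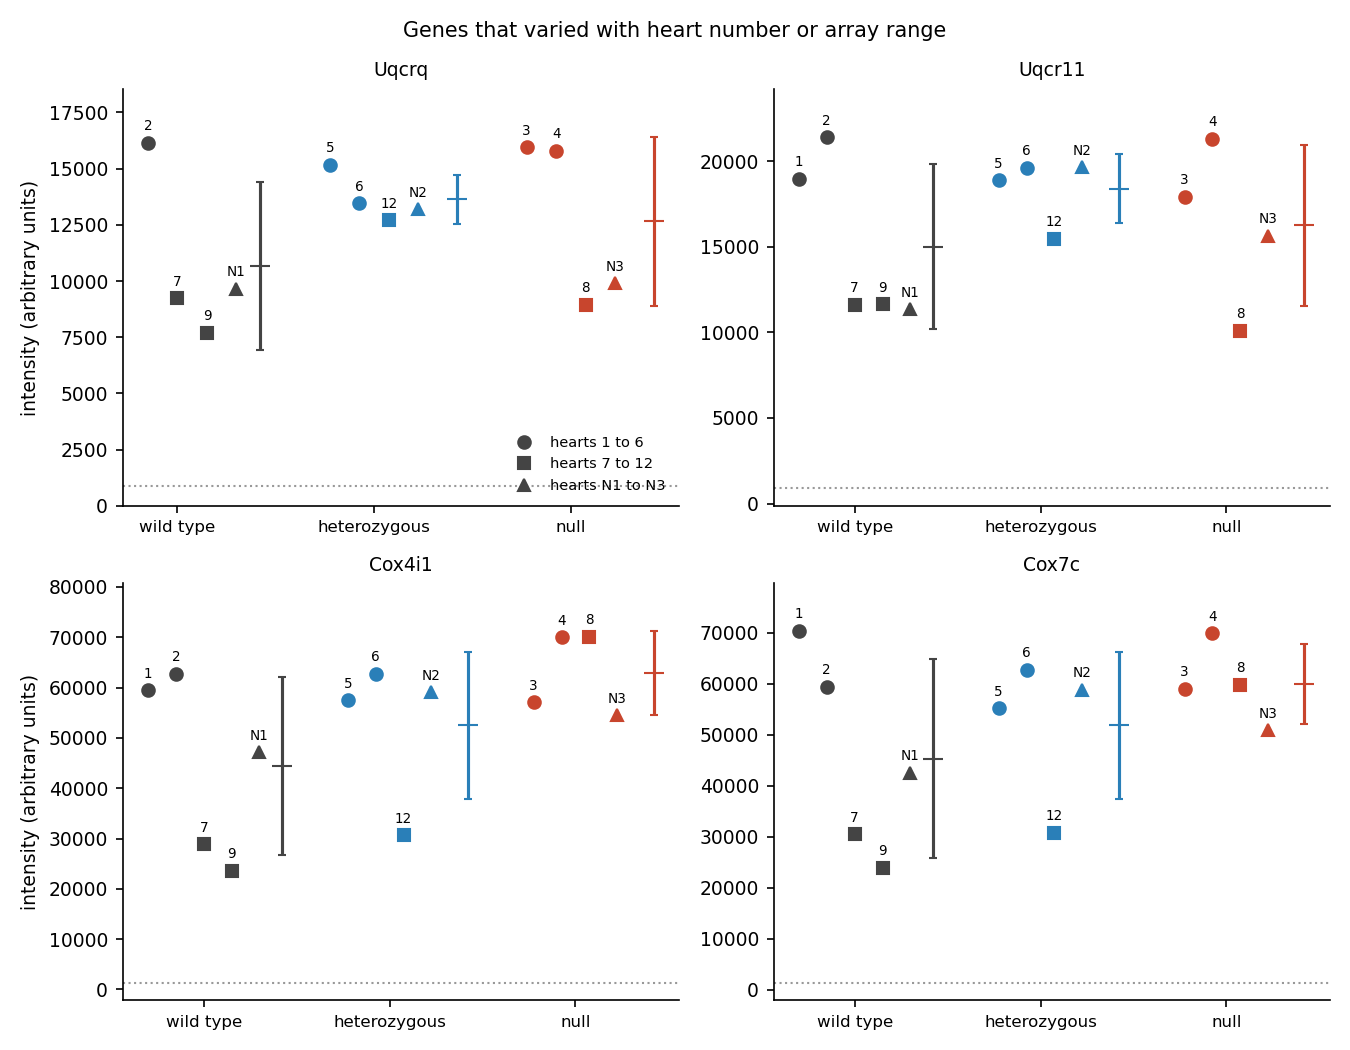
Intensity of Uqcrq, Uqcr11, Cox4i1 and Cox7c in each heart, by genotype, with heart numbers and symbols for the range of numbers. Bars beside the points are mean ± SD and dotted lines the floor; wild-type hearts 7, 9 and N1 are the lowest wild-type hearts in all 4 panels, and heterozygous heart 12 is far below the other heterozygous hearts for Cox4i1 and Cox7c.

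Spread within genotypes was measured as the SD of hearts around their genotype mean. The median within-genotype SD was 0.20 on the log2 scale for members and 0.23 for probe sets of equal signal, and 32 of 56 members were below their neighbours, with a range over members of 0.08 to 0.57. The median SE of a member's null-minus-wild-type difference was 0.17.

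Other genes of mitochondrial energy metabolism were described from lists of symbols. In 11 tested assembly factors of the respiratory chain the null-minus-wild-type median was 0.074 with 7 above 0, in 15 probe sets of mitochondrial carriers and pores 0.016 with 10 above 0 (-0.024 after quantile scaling and -0.049 after the loess curve), and in 30 probe sets of the mitochondrial ribosome 0.036 with 19 above 0. Citric acid cycle and pyruvate dehydrogenase genes had a median of -0.026, with 3 of 10 probe sets above 0. Between heterozygous and wild-type hearts the citric acid cycle probe sets had a median of -0.17, with 2 of 10 above 0 (-0.25 after quantile scaling, -0.17 after the loess curve, and -0.066 with 3 of 10 above 0 without the mostly blank arrays), against 0.099 for the subunits and 0.1 for the mitochondrial ribosome (22 of 30 above 0), which was 0.048 with heart number as a block. In the same comparison the assembly factors had a median of 0.038 with 7 of 11 above 0, and the carriers and pores -0.004 with 7 of 15. Cs, citrate synthase, the entry enzyme of the cycle, was at -0.49 ± 0.19 (unadjusted p = 0.0184 in limma). Sdhaf1, of the assembly factors, was at -0.37 ± 0.15 (unadjusted p = 0.0229 in limma), at a signal near the floor. The 5 probe sets of mitochondrial biogenesis regulators had a median of -0.11 between heterozygous and wild-type hearts, with 2 above 0. Gabpb1, a subunit of nuclear respiratory factor 2, was at -0.44 ± 0.21 (unadjusted p = 0.0598 in limma), Polg, the mitochondrial DNA polymerase, at -0.11 ± 0.29 and Ssbp1, which binds single-stranded mitochondrial DNA, at -0.15 ± 0.20. The 2 probe sets above 0 were those of Yy1, a transcription factor, at 0.27 ± 0.11 and 0.37 ± 0.14 (unadjusted p = 0.0303 and 0.0188 in limma), at signals near the floor. No gene of these lists passed over all probe sets in limma.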

How the data were processed

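Each of the 26 arrays gave a column of intensity values that the authors deposited, scaled per the values to a trimmed mean of 1500 on arrays without blanks. The array software, its settings and the genome build are not given in the sources used here. Probe sets were named through the platform annotation. The deposited intensities were raised to a floor of 2 times the noise of their table, put on a log2 scale and fitted with limma 3.58.1 in R 4.3.3, per table, with genotype as factor and a variance trend. P-values were adjusted by Benjamini-Hochberg over the 4494 probe sets of both tables, and an adjusted p under 0.05 was a call. Tested probe sets had at least 4 hearts above the floor and 2 values per genotype. Named genes were those with the smallest p per complex and comparison, and isoform genes. The members, lists and rules were chosen with earlier results of these data known. The fit was tested on simulated data. Alternatives were another scaling, floor or filter, a block for heart number, and leaving out hearts or arrays. On arrays the number of hearts limits the precision.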

Additional observations from a re-analysis of the deposited data

Results flagged for a closer look

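Among 127 groups of at least 4 hearts examined, 8 had a highest or lowest heart far from the others, and chance gives about 1 in 20. Another 7 groups with a heart below the floor were left out, since values raised to the floor have no order. In wild-type heart 2 the highest values were 14639 for Cox6a2 on the A array and 50399 for Cox8a. In wild-type heart 9 the lowest value was 20889 for Atp5mpl, a small ATP synthase subunit. In heterozygous heart 12 the lowest values were 30698 for Cox4i1, 15460 for Uqcr11 and 29227 for the B probe set of Atp5a1. The lowest heterozygous value was 4985 in heart 6 for Ndufb1, an accessory complex I subunit, and 10894 in heart N2 for the Cycs probe set without the family suffix.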

How the results depend on the processing

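Over the alternatives run, the sign of the members' median stayed above 0 in null against wild type and in heterozygous against wild type. In null against heterozygous hearts quantile scaling gave a median of -0.117 (-0.078 against equal signal). Leaving out 1 heart gave medians of 0.094 to 0.174 (0.018 to 0.084 against equal signal), 0.068 to 0.153 (0.054 to 0.148) and -0.013 to 0.06 (-0.044 to 0.015) in the 3 comparisons, and 0 calls. Without the filter on low signal, limma called 1 member in null against wild type and 2 in heterozygous against wild type, where it called 1071 and 713 of 13069 probe sets. In both, Sdhd was called at a difference of 0 because all its hearts were raised to the floor, and the other was Ndufa12, so calls from that fit are not read as changes. The 4 calls by heart number became 2 with quantile scaling, 0 without the filter, 2 without mostly blank arrays and 1 to 5 without 1 heart. The count of 5 also came from the run without heterozygous heart 5. The arrays of low range, the heart-number grouping and Cox7c were chosen after seeing the data. No paired analysis was possible because the genotypes share no heart numbers.

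Signs turned as follows, and the cause was not tested. Quantile scaling gave, in null minus wild type, Uqcr10 0, Sdhb -0.006, Cycs (X01756_f_at) -0.104, Atp5g1 -0.066, Cox8a -0.093 and Cox7a2 -0.079, in heterozygous minus wild type Sdhb 0.125, and in null minus heterozygous Ndufs3 -0.019, Atp5b -0.131, Sdhb -0.131, Cox8a -0.088, the other Cycs probe set 0.039, Cox6a1 -0.13 and Cox4i1 -0.113. The loess curve gave, in null minus wild type, Cycs (X01756_f_at) -0.069, Cyc1 -0.025, Atp5g1 -0.112, Cox8a -0.058 and Cox7a2 -0.144, and in null minus heterozygous Cox8a -0.012, the other Cycs probe set 0.086, Cox6a1 -0.1 and Atp5g1 -0.06. A floor of 3 times the noise gave Cox8b 0.084, and leaving out mostly blank arrays Cox7a2 -0.106, both in null minus wild type. The heart-number block gave Atp5g1 -0.005 in null minus wild type, and Cox6a2 on A -0.066 and Cox8b -0.082 in null minus heterozygous. Without the 3 arrays of low range the other Cycs probe set gave 0.153, 0.141 and 0.012 in the 3 comparisons, and Cox6a2 on B -0.095 and Cox7a2 -0.103 in null minus wild type.

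Of 64 named genotype differences, 16 turned sign when 1 heart was left out, and another 32 kept their sign but moved by over 1.5 times. The 17 probe sets with values in only 2 heterozygous hearts could not be tested without heterozygous heart 5 or 12. Their stability to those hearts is therefore unknown, which among the genes below holds for Atp5g1, Cox8b and Ndufaf1. The differences that turned sign gave these ranges. In null minus wild type they were -0.027 to 0.066 for Atp5g1, -0.095 to 0.178 for Cox6a2 on B, -0.043 to 0.1 for Cox7a2, -0.43 to 0.377 for Cox8b, -0.027 to 0.187 for Cyc1 and -0.186 to 0.153 for the other Cycs probe set. In heterozygous minus wild type they were -0.24 to 0.034 for Cox6a2 on B, -0.19 to 0.126 for Cox8b, -0.088 to 0.192 for Cyc1, -0.184 to 0.155 for the other Cycs probe set, -0.103 to 0.121 for Ndufaf1 and -0.041 to 0.039 for Sdhb. In null minus heterozygous they were -0.342 to 0.465 for Cox8b, -0.131 to 0.149 for Cyc1, -0.05 to 0.046 for the other Cycs probe set and -0.084 to 0.04 for Cycs X01756_f_at.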
